A study of Mus musculus with 6 samples.

Results

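The genes described here are 9 that encode the contractile apparatus, or mark the identity, of mammary myoepithelial cells and smooth muscle: Trp63, Oxtr, Acta2, Actg2, Myh11, Mylk, Cnn1, Tagln and Lmod1. They were chosen by name, with earlier results of these data known, and all 9 were found among the 54232 genes counted in each library. All 9 also passed the filter on low counts, which left 16752 genes. In mouse mammary tumors the mean level of each was higher in the CdGAP fx/fx group than in the CdGAP wt/wt group, by 1.28-fold (Oxtr) to 2.78-fold (Lmod1). No difference passed the adjusted threshold. The fx/fx libraries all lay above the wt/wt libraries for Acta2 and Cnn1, as they did for 9.74% of all genes tested.

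RNA was sequenced from 6 tumor libraries, 3 from CdGAP wt/wt mice and 3 from CdGAP fx/fx mice, named wt1 to wt3 and fx1 to fx3 after their label numbers. Every mouse, control or not, was NIC+: NIC is a transgene that couples an activated ErbB2 (Neu) to Cre recombinase behind a mammary tumor virus promoter active in mammary epithelium. The fx allele is a floxed form of Arhgap31, the gene of CdGAP, and the wt allele is the unmodified gene. The comparison asks how tumors that can lose CdGAP from the transgene-expressing epithelium differ from tumors that keep it, so fibroblasts, vessels and other cells outside the reach of that promoter are not expected targets of Cre. Strain, age and tumor stage are not given in the sources used here, and neither is whether each library came from a separate animal, so the p-values measure the spread between these libraries.

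Myoepithelial cells form the outer, basal layer of the mammary duct. They hold to the basement membrane, carry the transcription factor p63 and basal keratins, and squeeze milk from the alveoli when oxytocin reaches its receptor. Their contractile machinery is the one smooth muscle uses: calcium and calmodulin activate myosin light chain kinase, the kinase switches on myosin, and myosin pulls on actin filaments decorated with calponin and transgelin. Many of these genes are controlled by serum response factor (SRF), which binds CArG boxes and works with myocardin-family coactivators. Pericytes, vascular smooth muscle and activated fibroblasts express several of the same genes, so a bulk library does not show which cells the reads came from.

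Libraries held 36732137 to 53606276 counts. Levels are given as CPM, counts per 1000000 counts after TMM scaling, and a count of 3, the most that a count of 0 allows for, was worth 0.0565 to 0.0803 CPM (counting error only). Arhgap31, the targeted gene, measured 433 to 664 CPM in wt/wt tumors and 44.1 to 156 CPM in fx/fx tumors, a log2 fold change of -2.38 ± 0.45 (SE). Its adjusted p was 0.153 by edgeR's quasi-likelihood test with Benjamini-Hochberg adjustment and 3.21e-05 by DESeq2. Over all genes edgeR called 0 genes at an adjusted p under 0.05 (0% of those tested) and DESeq2 called 831, while 2381 had an unadjusted edgeR p under 0.05. The luminal markers Krt8 (533 to 861 CPM) and Epcam (1540 to 2180 CPM) were abundant in all 6 libraries, but the luminal keratin Krt19 measured 1.48 to 5.65 CPM. The basal keratins Krt5 (0.156 to 1.67 CPM) and Krt14 (0.153 to 1.36 CPM) were counted at most 85 times in a library.

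Between genotypes, 6 of the 9 genes were higher in fx/fx at an unadjusted edgeR p under 0.05 (Acta2, Myh11, Mylk, Cnn1, Tagln and Lmod1), against 8.18% of all genes in that direction, and 0 were lower, against 6.04%. By edgeR 0 of 9 were called after adjustment, and DESeq2 also called 0 of 9, where it called 3.01% of all genes higher and 1.95% lower. The 3 fx/fx libraries lay above the 3 wt/wt libraries for 2 of the 9, against 9.74% of all genes. The median log2 fold change was 1.02 over the 9 genes and -0.0043 over all genes tested, of which 49.6% were higher in fx/fx. The 9 genes were chosen with earlier results of these data known, and several vary together (r = 0.99 between Acta2 and Tagln). The shares over all genes are therefore no test of the 9 as a set. The count of 6 changed with single libraries left out. It was 2 without fx1 (Acta2 and Cnn1), 3 without wt1 (Acta2, Myh11 and Mylk) and 3 without wt2 (Oxtr, Acta2 and Cnn1). It was 4 without wt3 or fx2 and stayed 6 without fx3. The count over all genes, 2381 from all 6 libraries, also fell, to 1683 without fx1, 1710 without wt1 and 1943 without wt2. That count was 1966 without wt3, 2233 without fx3 and 3067 without fx2. In bulk RNA, more cells of a type and more RNA per cell cannot be told apart.

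**Figure D1:**
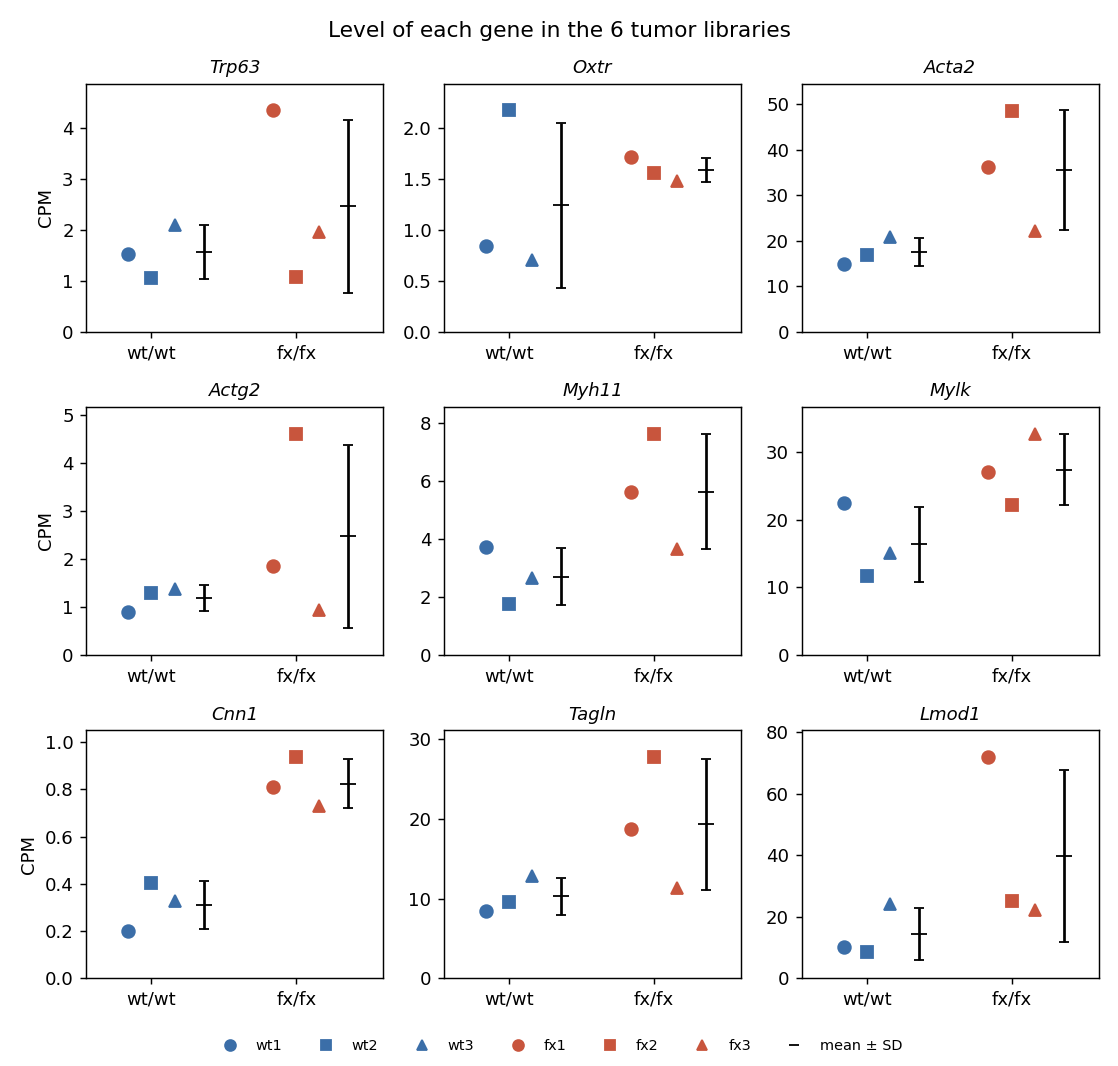
Level of each of the 9 genes in CPM (vertical axis, linear, from 0) in the 3 wt/wt libraries (blue) and the 3 fx/fx libraries (red), with the group mean ± SD in black beside the points. The groups are separate for Acta2 and Cnn1, fx1 stands high for Trp63 and Lmod1, and fx2 stands high for Actg2 and Tagln.

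Trp63 encodes p63, the transcription factor that maintains basal and myoepithelial cells (ENSMUSG00000022510, GRCm38, chromosome 16, 25683763 to 25892102, plus strand). It was counted 69, 47 and 96 times in wt1, wt2 and wt3 and 231, 40 and 81 times in fx1, fx2 and fx3, which is 1.53, 1.05 and 2.10 CPM against 4.35, 1.07 and 1.96 CPM. The fx1 library was high, and the other 2 fx/fx libraries lay inside the wt/wt range. The wt/wt mean was 1.56 ± 0.524 CPM and the fx/fx mean 2.46 ± 1.69 CPM (SD, n = 3 each), and the log2 fold change was 0.66 ± 0.56 (SE) with an adjusted edgeR p of 0.651. Without fx1 it was -0.05, so the direction of the Trp63 difference came from that library.

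Oxtr encodes the oxytocin receptor, the G protein-coupled receptor that triggers myoepithelial contraction (ENSMUSG00000049112, chromosome 6, 112473683 to 112489943, minus strand). Its counts were 38, 97 and 32 in wt/wt and 91, 58 and 61 in fx/fx, in the order of the library numbers, or 0.842, 2.17 and 0.699 CPM against 1.71, 1.55 and 1.48 CPM. The highest of all 6 was wt2, the other 2 wt/wt libraries were the lowest, and the 3 fx/fx libraries lay close together between them. The log2 fold change was 0.36 ± 0.50 (SE) with an adjusted edgeR p of 0.802, and it moved from 0.06 without wt3 to 1.03 without wt2.

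Acta2 encodes smooth muscle alpha-actin, the actin that marks myoepithelial cells, vascular smooth muscle and myofibroblasts (ENSMUSG00000035783, chromosome 19, 34241090 to 34255336, minus strand). Its levels, from 670 to 1916 counts, were 14.8 (wt1), 16.9 (wt2) and 20.9 CPM (wt3) against 36.1 (fx1), 48.5 (fx2) and 22.1 CPM (fx3). All fx/fx libraries were above all wt/wt libraries, although fx3 exceeded wt3 by little. The means were 17.5 ± 3.07 CPM and 35.5 ± 13.2 CPM (SD, n = 3 each), a 2.03-fold difference. On the log2 scale this was 1.02 ± 0.31 (SE), with an adjusted p of 0.23 by edgeR and 0.0695 by DESeq2. With 1 library left out, the DESeq2 adjusted p was 0.00131 without fx3 and 0.104 (without wt3) to 0.323 (without wt1) with any other library left out, so those 5 values were above that from all 6 libraries.

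Actg2 encodes smooth muscle gamma-actin, the enteric and myoepithelial isoform (ENSMUSG00000059430, chromosome 6, 83512905 to 83536265, minus strand). Its wt/wt levels were 0.886, 1.30 and 1.38 CPM and its fx/fx levels 1.86, 4.61 and 0.946 CPM, from 39 to 172 counts. The fx2 library was far above the rest and fx3 lay within the wt/wt range. The log2 fold change was 1.06 ± 0.59 (SE) with an adjusted edgeR p of 0.468, and 0.25 without fx2. The summed level of 10 skeletal muscle markers was 40.2 CPM in fx2, 12.5 CPM in wt2 and 0.776 to 3.56 CPM in the other 4 libraries. Skeletal alpha-actin (Acta1; 13.4 CPM in fx2, 1.74 CPM in wt2) and the fast myosin Myh4 (8.95 CPM in fx2, 0.536 CPM in wt2) made up most of the fx2 sum, whereas muscle creatine kinase (Ckm) was highest in wt2, at 7.57 CPM against 6.32 CPM in fx2. Myog, the gene of myogenin, had 1 count in wt2 and 0 in the other libraries. Their part in the actin values was not tested.

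The actin genes are close relatives, so the coding sequences were compared to see whether reads could be shared. Both stretches below come from GENCODE M21 transcripts on GRCm38, bases 31 to 120 of the Acta2 coding sequence and bases 28 to 117 of Actg2, with the 15 differing bases in capitals.
Acta2: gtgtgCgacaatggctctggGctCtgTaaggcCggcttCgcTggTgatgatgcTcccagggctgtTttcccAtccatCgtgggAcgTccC
Actg2: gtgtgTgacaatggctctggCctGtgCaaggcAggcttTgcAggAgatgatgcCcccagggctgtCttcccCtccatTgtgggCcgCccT
Over 1131 aligned coding bases the pair was 84.4% identical, and the longest identical run was 29 bases. No stretch of 50 bases in the Actg2 transcript occurred in a transcript of another gene. In Acta2, 7 of its 1986 such stretches did (0.352%, shared most with Gm8399). In Myh11, 26 of 6401 did (0.406%, shared most with the non-muscle myosin gene Myh9). These percentages count overlapping stretches and are not shares of the transcript's bases. The other 6 genes shared none.

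Myh11 encodes smooth muscle myosin heavy chain, the motor of smooth muscle and a late marker of its differentiation (ENSMUSG00000018830, chromosome 16, 14194535 to 14291372, minus strand). The wt/wt libraries held 3.72, 1.74 and 2.64 CPM and the fx/fx libraries 5.63, 7.63 and 3.64 CPM, from 78 to 299 counts. Of the fx/fx libraries fx1 and fx2 exceeded all of wt/wt, and fx3 lay just under wt1. The means were 2.70 ± 0.991 CPM and 5.63 ± 2.00 CPM (SD, n = 3 each), and the log2 fold change was 1.06 ± 0.43 (SE) with an adjusted edgeR p of 0.326.

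Mylk encodes myosin light chain kinase, the calmodulin-dependent enzyme that starts contraction by phosphorylating the regulatory light chain (ENSMUSG00000022836, chromosome 16, 34745210 to 35002420, plus strand). It was among the most counted of the 9, with 518 to 1442 counts, and its levels were 22.4, 11.6 and 15.0 CPM (wt/wt) against 27.1, 22.2 and 32.7 CPM (fx/fx). Here fx3 was the highest library, and wt1 stood level with fx2. Mylk had a log2 fold change of 0.74 ± 0.29 (SE) with an adjusted edgeR p of 0.313. Mylk lies 3.6 Mb from the floxed gene, and the 59 expressed protein-coding genes within 5 Mb of it had a median log2 fold change of 0.13. Trp63 and Myh11 lie on the same chromosome at 12.7 Mb and 24.3 Mb from Arhgap31, with neighbourhood medians of 0.13 and 0.04. All 3 members were above their neighbourhood's median, and whether DNA near the engineered allele differs between the groups was not tested.

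Cnn1 encodes calponin 1, which binds actin filaments and slows the myosin motor in differentiated smooth muscle (ENSMUSG00000001349, chromosome 9, 22099216 to 22109630, plus strand). It was the least counted of the 9, with 9, 18 and 15 counts in wt1, wt2 and wt3 and 43, 35 and 30 counts in fx1, fx2 and fx3. In CPM that was 0.199, 0.402 and 0.328 against 0.809, 0.937 and 0.728, so the groups did not overlap and every library exceeded the 3-count limit. The means were 0.310 ± 0.103 CPM and 0.825 ± 0.106 CPM (SD, n = 3 each), a 2.66-fold difference. For Cnn1 the log2 fold change was 1.40 ± 0.42 (SE), with an adjusted p of 0.228 by edgeR and 0.126 by DESeq2, and leaving out any 1 library gave 1.17 to 1.63. With so few counts, the size of the difference is known only roughly.

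Tagln encodes transgelin (SM22-alpha), an early actin-binding marker of the smooth muscle programme (ENSMUSG00000032085, chromosome 9, 45929619 to 45936058, minus strand). Levels were 8.40, 9.65 and 12.8 CPM for wt/wt and 18.8, 27.8 and 11.4 CPM for fx/fx, from 379 to 1038 counts. As for Acta2, fx2 was highest and fx3 lowest among fx/fx, but here fx3 lay under wt3. The log2 fold change was 0.91 ± 0.36 (SE) with an adjusted p of 0.313 by edgeR and 0.188 by DESeq2, and the DESeq2 value was 0.0157 without fx3 but 0.193 to 0.526 with any other library left out.

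Lmod1 encodes leiomodin 1, which nucleates actin filaments in smooth muscle (ENSMUSG00000048096, chromosome 1, 135324807 to 135368065, plus strand). It had 465, 382 and 1101 counts in wt/wt and 3821, 937 and 910 counts in fx/fx, or 10.3, 8.53 and 24.0 CPM against 71.9, 25.1 and 22.1 CPM. The fx1 library was the highest of all by a wide margin, and wt3 was level with fx2 and fx3. The means of 14.3 ± 8.49 CPM and 39.7 ± 28.0 CPM (SD, n = 3 each) gave the largest fold difference of the 9, 2.78-fold, with an SD more than 0.5 times the mean in both groups. The log2 fold change was 1.47 ± 0.57 (SE), with an adjusted p of 0.313 by edgeR and 0.116 by DESeq2. Without fx1 it was 0.72, and without wt3 it was 2.07. The DESeq2 adjusted p was 0.0171 without wt3 and 0.057 (without fx3) to 0.659 (without fx1) with any other library left out. The 56 expressed protein-coding genes within 5 Mb of Lmod1 were 0.30 higher in fx/fx in the median, the highest neighbourhood median of the 9. Relative to the wt/wt mean, that median was -0.61 in wt2, 0.44 in wt1, 0.17 in wt3 and 0.37 to 0.43 in fx/fx. The difference was not confined to that window. Over 572 such genes of chromosome 1, the median was 0.10, -0.32 and 0.17 in wt1, wt2 and wt3. In fx1, fx2 and fx3 the chromosome median was 0.36, 0.22 and 0.53. The part of these regional and chromosome-wide differences in the Lmod1 values was not tested.

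**Figure D2:**
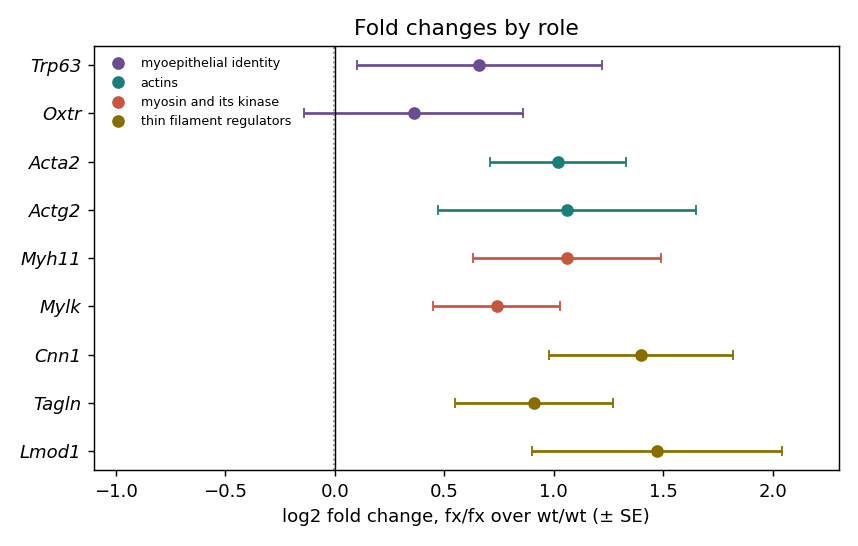
Log2 fold change of fx/fx over wt/wt for each gene (points, horizontal axis) with its standard error (bars), coloured by role, a solid line at 0 and a dotted line at the median of all genes tested (-0.0043). All 9 points lie right of 0, from 0.36 (Oxtr) to 1.47 (Lmod1), and the bars of Trp63, Oxtr, Actg2 and Lmod1 are the longest.

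The promoters of Acta2 and Lmod1 are shown because each holds a pair of CArG-like sequences, and that of Cnn1 because its groups were separate and its window holds none. Each line gives the 250 bases before the RefSeq start on GRCm38.p6, read along the gene's strand, with capitals marking stretches that differ from a CArG box by at most 1 base. The windows are chr19:34255374-34255623 (minus) for Acta2, chr1:135324563-135324812 (plus) for Lmod1 and chr9:22099003-22099252 (plus) for Cnn1.
Acta2: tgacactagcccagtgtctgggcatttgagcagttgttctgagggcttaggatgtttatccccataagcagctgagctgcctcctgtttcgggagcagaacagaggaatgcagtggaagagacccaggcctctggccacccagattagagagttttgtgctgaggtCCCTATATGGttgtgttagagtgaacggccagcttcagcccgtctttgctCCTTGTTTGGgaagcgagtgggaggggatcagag
Lmod1: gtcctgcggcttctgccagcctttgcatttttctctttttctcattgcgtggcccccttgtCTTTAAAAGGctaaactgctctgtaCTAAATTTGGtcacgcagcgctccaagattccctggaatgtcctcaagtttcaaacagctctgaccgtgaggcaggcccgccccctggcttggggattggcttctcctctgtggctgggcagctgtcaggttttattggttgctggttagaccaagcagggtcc
Cnn1: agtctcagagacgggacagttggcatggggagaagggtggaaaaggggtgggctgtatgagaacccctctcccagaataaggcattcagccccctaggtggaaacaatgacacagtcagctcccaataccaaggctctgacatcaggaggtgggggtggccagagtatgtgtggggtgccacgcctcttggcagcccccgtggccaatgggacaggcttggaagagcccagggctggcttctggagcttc
In Acta2 the stretches began 84 and 34 bases before the start (CCCTATATGG and CCTTGTTTGG), and in Lmod1 they began 189 and 164 bases before it (CTTTAAAAGG and CTAAATTTGG). The CArG pattern reads the same on both strands, so 1 search covered both, and 0 exact copies were found in the 5 windows searched (Acta2, Lmod1, Cnn1, Oxtr and Mylk). The windows of Cnn1, Oxtr and Mylk held 0 stretches within 1 mismatch. That of Mylk (chr16:34784700-34784949, plus) lies inside the gene, which spans 34745210 to 35002420, so the region before its outermost start was not searched. The windows of Oxtr (chr6:112489826-112490075, minus), Cnn1 and Lmod1 also run partly into the annotated gene. On its minus strand Oxtr begins at 112489943, while Cnn1 begins at 22099216 and Lmod1 at 135324807. Of 32851 promoter windows of this length, 1.47% held an exact CArG box, 18.6% held at least 1 stretch within 1 mismatch, and 2.96% held 2 or more. A match is a description of the letters and does not show binding. Trp63, Actg2, Myh11 and Tagln were not in the promoter table.

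Levels can be compared between genes per unit of exon length, as RPKM (CPM per 1000 bases of exon). In wt/wt Acta2 led at a mean of 9.85 ± 1.72 RPKM, followed by Tagln (5.17 ± 1.14), Lmod1 (3.62 ± 2.15), Mylk (1.45 ± 0.493), Actg2 (0.762 ± 0.169), Myh11 (0.356 ± 0.130), Oxtr (0.258 ± 0.169), Trp63 (0.186 ± 0.0624) and Cnn1 (0.113 ± 0.0375; SD, n = 3). Of the neighbours in that order, Tagln and Lmod1 overlapped, as did Myh11 and Oxtr, Oxtr and Trp63, and Trp63 and Cnn1. In fx/fx the order was Acta2 (20.0 ± 7.40 RPKM), Lmod1 (10.1 ± 7.08), Tagln (9.73 ± 4.13), Mylk (2.43 ± 0.467), Actg2 (1.59 ± 1.22), Myh11 (0.741 ± 0.263), Oxtr (0.330 ± 0.0249), Cnn1 (0.301 ± 0.0386) and Trp63 (0.293 ± 0.202). There, neighbours were separate only between Tagln and Mylk and between Myh11 and Oxtr. Both orders thus put the actin Acta2 and its binding protein Tagln near the top. The identity genes Trp63 and Oxtr stood near the bottom with Cnn1, and the 3 differ in the last places by less than their spread in fx/fx.

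The 9 genes did not share 1 profile across libraries. On the log2 CPM scale relative to the wt/wt mean, the median of the 9 was -0.27, -0.07 and 0.23 in wt1, wt2 and wt3 and 1.05, 1.45 and 0.43 in fx1, fx2 and fx3. The fx2 library was the highest of the 6 for 5 genes (Acta2, Actg2, Myh11, Cnn1 and Tagln), fx1 for Trp63 and Lmod1, fx3 for Mylk and wt2 for Oxtr. Among fx/fx libraries fx3 was the lowest for 7 of 9 genes. Across the 6 libraries, Pearson's r of log2 CPM was 0.99 between Acta2 and Tagln, 0.93 between Actg2 and Tagln, 0.86 between Acta2 and Cnn1 and 0.83 between Acta2 and Myh11. It was 0.81 between Trp63 and Lmod1, both highest in fx1, but 0.20 between Trp63 and Acta2, 0.34 between Oxtr and Acta2 and 0.00 between Actg2 and Mylk. These values describe 6 points that include the genotype difference and share library depth, and they carry no p.

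**Figure D3:**
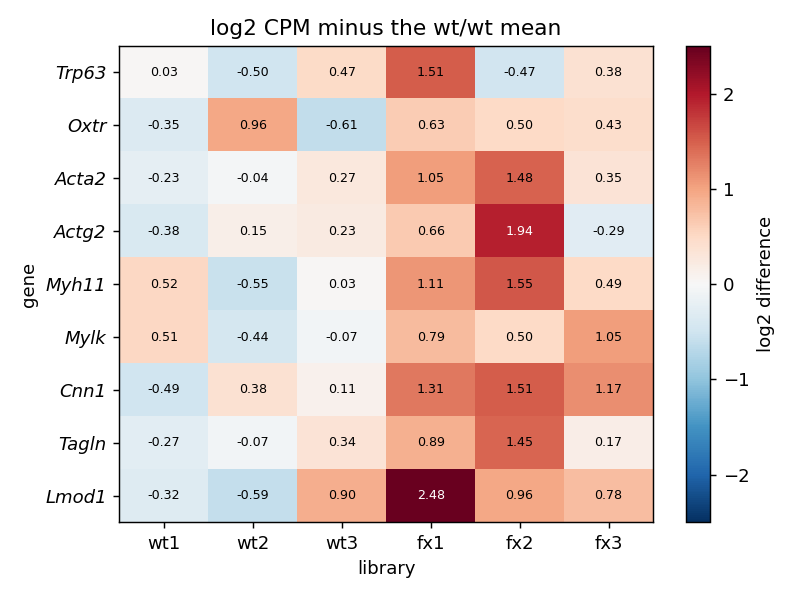
Log2 CPM of each gene (rows) in each library (columns) minus the mean of the wt/wt libraries, from blue (lower) through white (0) to red (higher), with the value in each cell. Lmod1 in fx1 (2.48) and Actg2 in fx2 (1.94) are the highest cells, and fx3 is the palest fx/fx column for most genes.

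Other genes whose profile was most like the mean of the 9, by Pearson's r over the 6 libraries among genes of at least 5 CPM, were Dlgap4 (r = 0.991), Adgra2 (0.991), Mark4 (0.990), Fam102a (0.990), Tead3 (0.990) and Pla1a (0.989). Adgra2, an adhesion receptor of vessels, measured 3.77, 4.11 and 4.43 CPM in wt/wt libraries against 9.22, 7.95 and 6.38 CPM. Pla1a, a phosphatidylserine lipase, measured 2.68, 2.12 and 2.88 CPM against 11.7, 9.08 and 4.95 CPM. Its gene lies on chromosome 16 from 38396117 to 38433145, near Arhgap31 (38598340 to 38713274) without overlapping it. Whether that nearness bears on the Pla1a levels was not tested. The mean profile was itself higher in the fx/fx libraries, so the higher fx/fx levels of these 6 genes follow from how they were chosen. None of the 6 passed the adjusted edgeR threshold (adjusted p from 0.182 for Dlgap4 to 0.409 for Tead3).

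Of 26 further smooth muscle contractile and cytoskeletal genes, 25 were tested, with 18 higher and 7 lower in fx/fx and a median log2 fold change of 0.56. At an unadjusted edgeR p under 0.05, 7 were higher and 0 lower; edgeR called 0 after adjustment and DESeq2 called 2, both higher. The regulatory myosin light chain Myl9 measured 4.28, 4.24 and 4.63 CPM in the wt/wt group against 7.72, 8.89 and 5.48 CPM. The DESeq2 calls were calponin 2 (Cnn2; log2 fold change 1.04, DESeq2 adjusted p = 0.00923) and the actin crosslinker filamin A (Flna; 0.79, DESeq2 adjusted p = 0.0211). The Cnn2 call was lost without wt1 (0.107) or wt3 (0.0885), and the Flna call without wt1 (0.192), wt3 (0.127), fx1 (0.0734) or fx3 (0.0765). The 3 fx/fx libraries were below the 3 wt/wt libraries for caldesmon (Cald1), at 383 to 626 CPM against 652 to 709 CPM, with a log2 fold change of -0.38 ± 0.24 (SE).

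A list of 12 genes held SRF, coactivators, upstream regulators and some other transcriptional regulators. Of these, 11 were tested, with 10 higher and 1 lower, a median log2 fold change of 0.41 and 5 higher at an unadjusted p under 0.05. Srf itself measured 62.2, 49.0 and 78.8 CPM in the wt/wt libraries against 94.6, 61.7 and 66.3 CPM, with overlapping groups and an adjusted edgeR p of 0.733. Myocd, the gene of myocardin, was counted 8, 5 and 9 times in wt/wt and 9, 10 and 9 times in fx/fx and did not pass the filter on low counts. The myocardin-related factor Mrtfb was higher in all fx/fx libraries (78.1 to 113 CPM) than in wt/wt (52.8 to 70.8 CPM), with an adjusted edgeR p of 0.274. DESeq2 called 1 gene of the list, Hic1 (log2 fold change 1.09, DESeq2 adjusted p = 0.0117). Hic1 is a transcriptional repressor and not a coactivator or upstream regulator of SRF, so its call is no result about SRF. That call was lost without wt1 (0.0931), wt3 (0.092) or fx1 (0.089).

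Oxytocin acts through Gq, phospholipase C and calcium release, and 14 genes of that route were tested. There were 11 higher and 3 lower, with a median log2 fold change of 0.31, 3 higher at an unadjusted p under 0.05 and 0 called by edgeR or DESeq2. Cd38, an enzyme that makes calcium-mobilizing nucleotides, differed most by its edgeR p, with an adjusted value of 0.239. It measured 9.02 to 11.4 CPM in wt/wt libraries against 13.6 to 34.4 CPM in those of fx/fx.

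The basal and p63-linked list was read beside the low Trp63 signal, but not all of its genes are particular to myoepithelial cells. Some were abundant in every library, such as Itga6 (388 to 599 CPM), Perp (142 to 303 CPM) and Dst, whereas Krt5 and Krt14 were scarce. Of 20 genes 18 were tested, 12 higher and 6 lower, with a median log2 fold change of 0.63. At an unadjusted edgeR p under 0.05, 6 were higher and 0 lower, and DESeq2 called 3, all higher. The 6 lower genes were Krt17, Perp, Fat2, Egfr, Lamb3 and Sfn. For Sfn all fx/fx libraries (9.11 to 11.4 CPM) lay below those of wt/wt (12.8 to 15.4 CPM). Krt14 was higher with overlapping groups, at a log2 fold change of 1.27 ± 0.61 (SE) and an adjusted edgeR p of 0.402. Krt5, the basal keratin, had 15, 7 and 17 counts in wt/wt and 85, 28 and 69 counts in fx/fx, a log2 fold change of 2.22 ± 0.52 (SE; adjusted p = 0.185 by edgeR, 0.00923 by DESeq2). Col17a1, a hemidesmosome collagen, had 2, 4 and 6 counts against 30, 22 and 30 counts, a log2 fold change of 2.79 ± 0.50 (SE; adjusted p = 0.153 by edgeR, 0.00761 by DESeq2). For both genes the groups were separate, at levels near the detection limit in wt/wt. The Krt5 call by DESeq2 was lost without fx1 (0.132) or fx3 (0.0788), and that of Col17a1 without wt1 (0.0667) or fx1 (0.0565), while DESeq2 gave no adjusted p without wt2 or fx3. The third, dystonin (Dst; 373 to 547 CPM against 697 to 1300 CPM, DESeq2 adjusted p = 0.0406), was not called without wt1 (0.0681), wt2 (0.19), wt3 (0.17) or fx1 (0.148). Krt5 was lowest in fx2 among fx/fx libraries, as Trp63 and Mylk were, whereas the other 7 genes were lowest in fx3.

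Marker lists of other cells that express contractile genes, or lie beside them, also stood higher in fx/fx. The 10 pericyte and mural markers summed to 256 to 361 CPM in the wt/wt group and 391 to 497 CPM in the fx/fx group, with 9 higher, 5 of them at an unadjusted p under 0.05, and a median log2 fold change of 0.81. DESeq2 called the proteoglycan NG2 (Cspg4; 2.97 to 3.84 CPM against 7.57 to 9.83 CPM, DESeq2 adjusted p = 1.75e-04), a call that held with each library left out in turn. The 8 endothelial markers summed to 95.8 to 119 CPM against 113 to 225 CPM, all 8 higher, 5 at an unadjusted p under 0.05, with a median of 0.75, and fx3 was level with wt/wt. The 10 fibroblast markers summed to 288 to 508 CPM against 805 to 1470 CPM, with 9 higher, all at an unadjusted p under 0.05, a median of 1.39 and 6 called by DESeq2.

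The 6 adipocyte markers summed to 17.4 to 50.9 CPM against 73.5 to 221 CPM, with a median of 2.48. The 7 luminal markers summed to 3760 to 4510 CPM against 3650 to 5170 CPM, with 5 higher and 2 lower and a median of 0.07. Among them Krt19 was higher in all fx/fx libraries (3.76 to 5.65 CPM) than in wt/wt (1.48 to 2.55 CPM), with a DESeq2 adjusted p of 0.0232 that was 0.174 without wt1, 0.112 without wt3 and 0.131 without fx3. No marker in these lists was lower at an unadjusted p under 0.05. Relative to wt/wt, the mural median was 1.23, 0.73 and 0.40 in fx1, fx2 and fx3, the endothelial median 1.08, 0.89 and 0.08, and the fibroblast median 1.37, 1.82 and 1.02. Among fx/fx libraries these 3 medians, like that of the 9 genes, were lowest in fx3, and the fibroblast median (1.82) and the adipocyte median (3.91) were highest in fx2. Among wt/wt libraries the order differed: the median of the 9 was highest in wt3 (0.23), where the fibroblast median was lowest (-0.36), and the mural and fibroblast medians were highest in wt2 (0.31 and 0.28). The part of mural cells, fibroblasts or other cell types in the levels of the 9 genes was not tested.

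**Figure D4:**
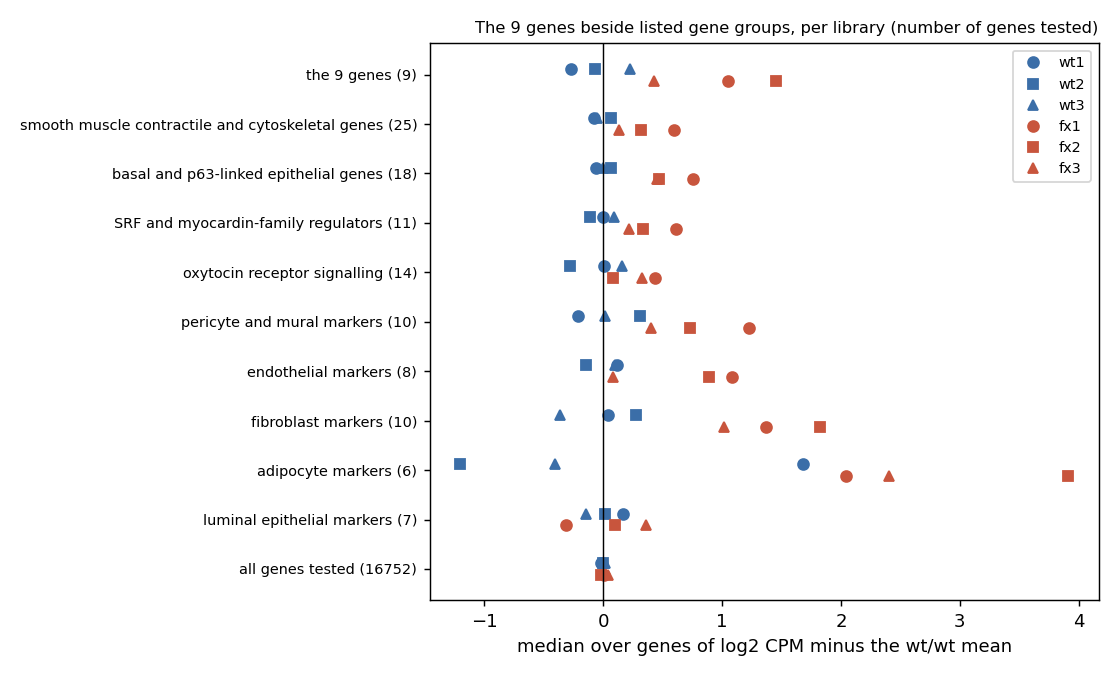
Median over the genes of each list (rows, number tested in parentheses) of log2 CPM minus the wt/wt mean (horizontal axis), 1 point per library, wt/wt in blue and fx/fx in red. The 9 genes reach 1.45 in fx2, fibroblast markers reach 1.82 and adipocyte markers 3.91 in the same library, and the luminal list and all genes tested stay within 0.36 of 0. The skeletal muscle list, with 2 genes tested, is left out.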

How the data were processed

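Each deposited file held raw counts of read pairs for every gene, made by the authors with featureCounts 1.6.0 on the Ensembl release 93 annotation of GRCm38, with strand option 2, per the file headers. The submitters' processing notes name STAR 2.5.1b and featureCounts 1.4.6, so the counter's version differs between the sources. GENCODE M21 gave a symbol for 54079 of 54232 gene identifiers.

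The genotype comparison used edgeR 4.0.16 under R 4.3.3 (filterByExpr, TMM, quasi-likelihood test with robust=TRUE, 2-sided, Benjamini-Hochberg adjustment over all 16752 genes tested, threshold 0.05). Log2 CPM used a prior count of 2. The SE of an edgeR log2 fold change was its absolute value divided by the square root of the quasi-likelihood F statistic. DESeq2 1.42.0, limma 3.58.1 voom, other scalings, no filter, the replicate block and leaving out each library were alternatives; the DESeq2 fits without 1 library were added after seeing the data. The steps were tested on simulated data. The members and gene lists were chosen with earlier results of these data known. The rule named the 9 genes, Arhgap31, Srf, Myocd, up to 4 genes per list by smallest edgeR p, and 6 genes by likeness. Myl9, Cald1, Krt8, Krt14, Epcam, Acta1, Myh4, Myog and the relatives Cnn3, Lmod2 and Tpm2 were named after their values were seen. So were the lower basal-list genes Krt17, Perp, Fat2, Egfr, Lamb3 and Sfn. Chromosomal neighbours were protein-coding genes whose log2 CPM averaged over 3. No 2 libraries held identical counts.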

Additional observations from a re-analysis of the deposited data

How the results depend on the processing

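Of the 9 genes, 0 were called at an adjusted p under 0.05 by edgeR and under the 13 alternatives to it; DESeq2 with 1 library left out called Lmod1 without wt3 and Acta2 and Tagln without fx3. Over all genes the edgeR count of 0 was 831 with DESeq2, 38 without the filter on low counts, and 0 to 2 with 1 library left out (2 without fx2). The DESeq2 count ranged from 406 without wt1 to 1738 without fx2. The count of 6 at an unadjusted p under 0.05 was 2 to 6 with 1 library left out, and Acta2 was among them in every alternative. Of 117 fold changes of the 9 genes under the alternatives, 116 kept their direction and their side of the threshold; that of Trp63 was reversed without fx1 (-0.05, in a leave-one-out range of -0.05 to 1.02). The largest shifts elsewhere were Actg2, 0.25 without fx2, and Lmod1, 0.72 without fx1. Tagln was 0.56 without fx2. The cause of these shifts was not tested.

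Replicate numbers did not pair the libraries: deviations of same-numbered libraries correlated at -0.085, -0.0946 and 0.0569, and wt1 correlated best with fx2 (0.279). With the replicate block, 3 of the 9 (Acta2, Mylk and Cnn1) had an unadjusted p under 0.05, against 2081 of all genes.

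Depth limits Cnn1 most, at 9 to 43 counts a library, then Oxtr and Actg2.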

Other observations

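Calponin 1 and transgelin have relatives outside differentiated muscle, and per length those relatives were the more abundant in both groups. Per length, calponin 1 (Cnn1) measured 0.113 ± 0.0375 RPKM in wt/wt and 0.301 ± 0.0386 RPKM in fx/fx (SD, n = 3). Calponin 2 (Cnn2) measured 6.63 ± 1.10 and 13.7 ± 3.12 RPKM, and calponin 3 (Cnn3) measured 31.8 ± 5.98 and 38.9 ± 8.18 RPKM. Cnn3, the most abundant calponin in both groups, had overlapping groups and a log2 fold change of 0.29 ± 0.22 (SE), against 1.04 ± 0.24 for Cnn2 and 1.40 ± 0.42 for Cnn1. Whether these fold changes differ from each other was not tested.

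Transgelin 2 (Tagln2), the widely expressed relative of Tagln, measured 23.1 ± 5.86 RPKM in wt/wt and 47.4 ± 18.7 RPKM in fx/fx, against 5.17 ± 1.14 and 9.73 ± 4.13 RPKM for Tagln. Its libraries took another order than those of Tagln: Tagln2 was highest in fx3 (140 CPM, against 62.2 in fx1 and 94.2 in fx2), where Tagln was at its lowest among fx/fx. Leiomodin 2 (Lmod2), the relative of Lmod1 in striated muscle, had 1 to 12 counts in every library and did not pass the filter on low counts. Beta-tropomyosin (Tpm2), a filament partner of the smooth muscle actins, followed Actg2 in its library order among fx/fx, with 6.57, 9.91 and 3.76 CPM in fx1, fx2 and fx3 against 3.39 to 6.17 CPM in wt/wt.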
